A study of Capra hircus with 12 samples.

Results

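The miR-23, miR-27 and miR-24 miRNAs were examined in small RNA libraries of goat secondary hair follicles (SHFs), which produce cashmere. All names of the deposited tables that denote miR-23a, miR-23b, miR-27a, miR-27b or miR-24 were taken, in both arms where both are listed, which gave 9 of 376 miRNAs. They are chi-miR-23a, chi-miR-23b-3p, chi-miR-23b-5p, chi-miR-27a-3p, chi-miR-27a-5p, chi-miR-27b-3p, chi-miR-27b-5p, chi-miR-24-3p and chi-miR-24-5p, where chi stands for the goat (Capra hircus) and is left out from here on. All 9 passed the filter on low values, which 300 of the 376 miRNAs did. The follicles came from untreated Liaoning cashmere goats aged 1.5 years and were cut from scapular skin under a microscope. There were 12 libraries, a female and a male one for each of 6 months. February and March represent telogen, the resting phase (4 libraries), May the onset of anagen (2 libraries), and September full growth, or mid-anagen (2 libraries). The regression phase, catagen, is covered by November and December (4 libraries). The study sampled 3 goats of each sex per month, and how they were combined into a library was not given in the sources used here, so p-values measure the spread between libraries.

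A miRNA gene is transcribed into a hairpin, which is cut into a short duplex with a 5p and a 3p strand. As a rule, 1 strand (the guide) is loaded into an Argonaute protein and represses mRNAs that match its seed, the bases near its 5′ end, while the other strand (the passenger) is mostly degraded. In mammals miR-23, miR-27 and miR-24 are made from a pair of paralogous clusters, the a cluster and the b cluster, each from a shared primary transcript, and the 3p strand is the usual guide. They are best known from blood vessel growth, and miR-27 also from the control of fat cell formation. miR-24 is known in hair follicles as a repressor of the transcription factor Tcf-3.

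In the RefSeq genes of goat assembly ARS1.2, MIR23A and MIR27A neighbour each other within the span of ZSWIM4, and MIR23B, MIR27B and MIR24 neighbour each other within the span of C8H9orf3. This table holds 1 MIR24 gene, in the b cluster. It is another assembly than the CHIR_2.0 used by the authors, so only the neighbourhood is given. In mammals the mature miR-24-3p of both clusters is the same molecule, so miR-24-3p could not be assigned to a cluster. The mature 3p strands of the a and b forms of miR-23, and those of miR-27, share a seed and are nearly identical. How the authors assigned reads that match both was not given in the sources used here. The split between the a and b forms of these 3p strands is uncertain to that extent. miR-23a is listed without an arm, and it was set against miR-23b-3p.

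Each library held 3135292 to 5788032 counts on miRNAs, and its deposited TPM is the count per 1000000 counts of that total. Tests used TMM normalization, which scales libraries so that most miRNAs do not change, with factors from 0.813 to 1.29. The choice mattered, because with library totals the median log2 fold change of all 300 miRNAs moved from 0.07 to -0.46 between May and September and from 0.00 to 0.36 between catagen and telogen. Directions below are therefore relative to the other miRNAs, and values with library totals are given where they differ in sign or in call. Lower levels in a whole follicle cannot be told apart from fewer cells that make the miRNA. The markers of other cell types were all above 0 in each group. The summed TPM of the endothelial markers miR-126-3p and miR-126-5p was 9022 to 12699 in telogen, 9177 to 9686 in May, 9135 to 10220 in September and 8819 to 11616 in catagen, so these ranges overlapped. The 4 listed leukocyte markers summed to 1056 to 1753 in telogen and 1300 to 1412 in May, against 792 to 1123 in September and 694 to 888 in catagen. The 2 listed erythrocyte markers ranged from 27.9 to 115 in telogen and from 5.41 to 26.4 in catagen. Of the other marker lists, 6 epidermal miRNAs summed to 57929 to 96687 in telogen and 67759 to 94096 in catagen, 6 mesenchymal ones to 122370 to 145589 and 117614 to 147899, and 5 of muscle to 1898 to 3607 and 2463 to 3549. Between May and September the epidermal sum was lower in September (81375 to 88411 against 56735 to 72600), as was the leukocyte sum, while the muscle sum was higher (2108 to 2737 against 3387 to 3458), none of these overlapping. The mesenchymal sum was 135108 to 139576 in May and 139936 to 140485 in September, and that of erythrocytes 24.6 to 45.9 and 16.6 to 28.3. These sums follow the most abundant markers and the library total. On the TMM scale the September minus May median (log2) was 0.22 for the epidermal list (miR-200a called higher in September), 0.62 for the leukocyte list, -0.18 for the muscle list (miR-1 called higher), -0.03 for the mesenchymal list (miR-143-3p called higher) and -0.54 for the erythrocyte list, so that the first 3 had the opposite sign to their sums. Telogen minus catagen, the TMM median was 0.50 for the leukocyte list (miR-146a and miR-223-3p called higher in telogen). It was 1.5 for the erythrocyte list (miR-451-5p called higher). The epidermal, mesenchymal, muscle and endothelial lists had medians of 0.17, 0.23, 0.085 and 0.06, with no call. The part of any of these lists in the results was not tested.

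Together the 9 miRNAs took 10.7% of all counts, from 7.95% to 12.7% in the single libraries. Most of this was miR-27b-3p, which ranked 2 among 376 miRNAs by mean TPM and made up 77.4% to 88.8% of the counts of the 9. Its mean TPM was 90180 ± 16018 (SD, n = 12 libraries). The other 3p strands were more than an order of magnitude lower, with 5703 ± 1011 for miR-24-3p, 3963 ± 563 for miR-23a, 3959 ± 607 for miR-23b-3p and 2707 ± 551 for miR-27a-3p. TPM here has no length term, but mature miRNAs are of nearly the same length. The order of miR-27b-3p above miR-24-3p above miR-23a was the same in all 12 libraries. miR-23a and miR-23b-3p could not be ordered, as miR-23a was above miR-23b-3p in 4 of 12 libraries only. miR-23b-3p was above miR-27a-3p in 11 of 12 libraries.

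The 5p strands were scarce, with the exception of miR-27a-5p. Mean TPM was 220.9 ± 101 for miR-27a-5p, 29.7 ± 5.51 for miR-27b-5p, 15.3 ± 4.10 for miR-24-5p and 15.2 ± 2.95 for miR-23b-5p (SD, n = 12 libraries). Thus the most abundant passenger strand belonged to the precursor whose guide, miR-27a-3p, was the least abundant of the guides. miR-27a-5p was above miR-27b-5p in 12 of 12 libraries, while miR-24-5p was above miR-23b-5p in 4 of 12. The 2 scarcest strands rested on 24 to 112 counts (miR-24-5p) and 49 to 102 counts (miR-23b-5p) per library. A count of 0 would allow a TPM of up to 0.518 to 0.957 (3 counts, counting error only), so even these were well above the limit of detection.

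**Figure D1:**
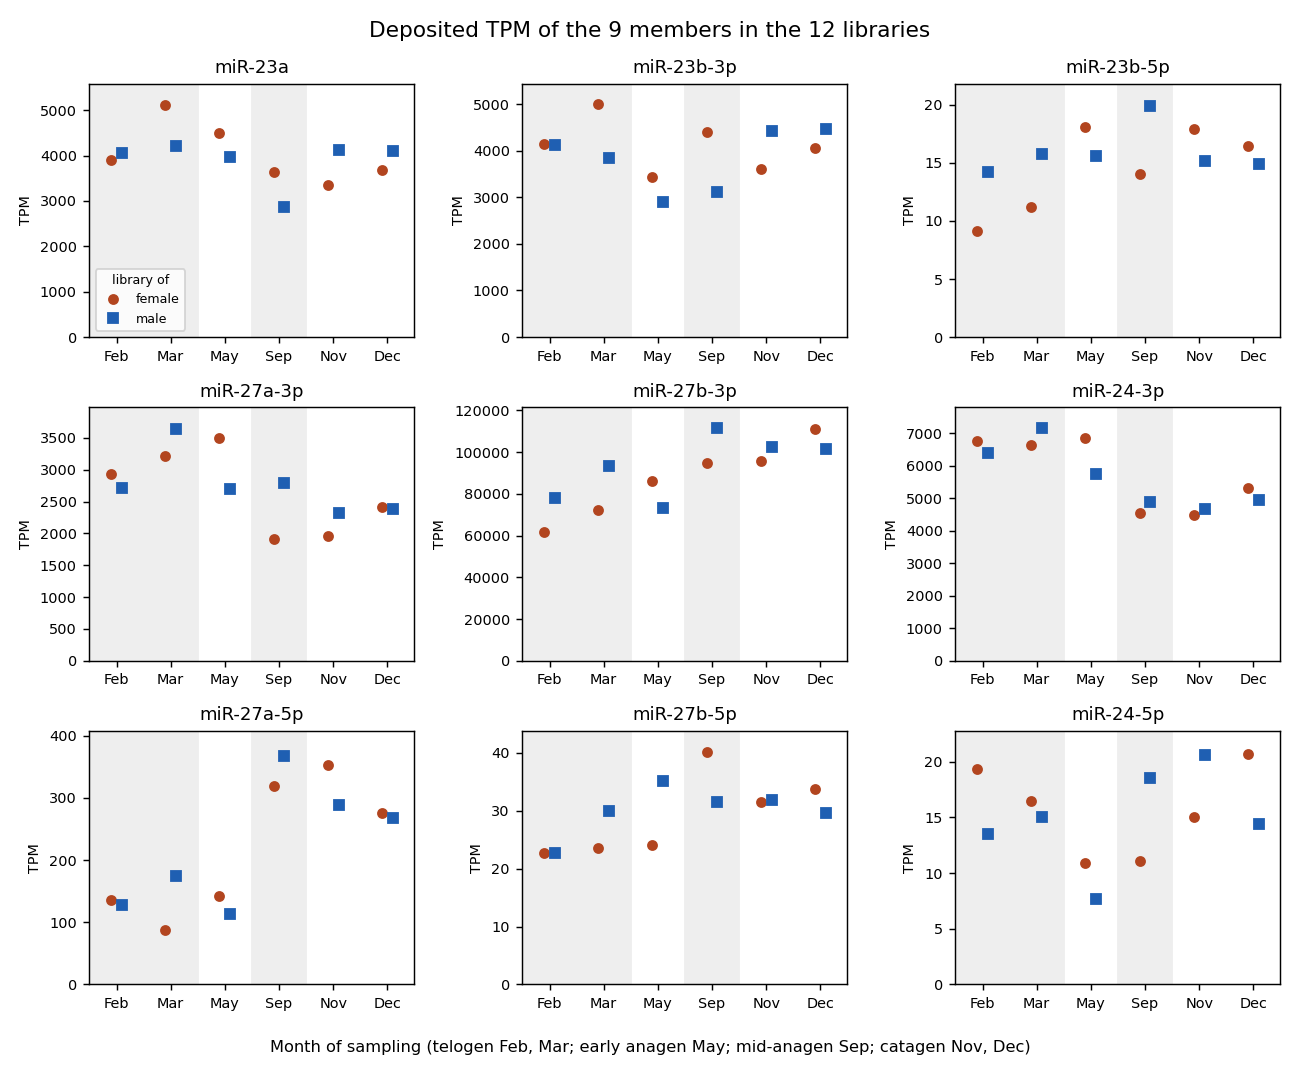
Deposited TPM (counts per 1000000 counts of the library, linear axes from 0) of the 9 miRNAs against the month of sampling. Each point is 1 library, circles female and squares male, and shading separates the phases. miR-27a-5p lies between 88.2 and 174 in the 6 libraries of February to May and between 268 and 368 in the 6 libraries of September to December.

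The largest change of the 9, both from May to September and from catagen to telogen, was that of the passenger strand miR-27a-5p. In telogen its TPM was 136 and 127 in the female and male February libraries and 88.2 and 174 in the female and male March libraries. In May it was 141.7 (female) and 114 (male). In September it reached 320 and 368, followed by 352 and 288 in November and 275 and 268 in December. The telogen and May libraries all lay below the September and catagen libraries, with no overlap. miR-27a-5p rose from May to September, with a log2 fold change of 1.95 ± 0.26 (SE, adjusted p = 0.000639 in edgeR's quasi-likelihood test), and was lower in telogen than in catagen, at -1.55 ± 0.18 (SE, adjusted p = 0.000264). It was also higher than in May in catagen (1.78) and higher than in telogen in September (1.72). These 4 comparisons share libraries and are not independent. The call was kept in all 20 alternatives of each of the 4 comparisons, and with library totals the values were 1.43, -1.17, 1.21 and 1.39. The alternative with no minimum fold cannot lose a call, and some of those with a library left out drop one outside the groups compared.

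miR-27b-3p, the abundant guide of the b cluster, moved in the same direction by a smaller amount. Its TPM was 61575 and 78165 in the female and male February libraries, 72095 and 93572 in March, and 86216 and 73319 in May. In September it was 95012 and 111391, in November 95621 and 102565, and in December 111014 and 101613. Every library of September to December was thus above every library of February to May, although the male March library came close. After TMM normalization the groups were further apart, with mean CPM (SD) of 68704 ± 6024 over the 4 telogen libraries, 63025 ± 8530 over the 2 of May, 117101 ± 7119 over the 2 of September and 119359 ± 2051 over the 4 of catagen. The log2 fold change was 0.89 from May to September (SE 0.13, adjusted p = 0.000976, edgeR) and -0.80 from catagen to telogen (SE 0.09, adjusted p = 0.000264). Both passed the adjusted p but stayed under the 2-fold limit of a call. With library totals these were 0.37 (adjusted p = 0.115) and -0.43 (adjusted p = 0.0192).

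miR-27a-3p shares its seed with miR-27b-3p but did not share its course. The TPM of miR-27a-3p was 2929 and 2713 in February, 3219 and 3644 in March, 3493 and 2693 in May, 1908 and 2797 in September, 1962 and 2327 in November, and 2416 and 2379 in December (female, then male). All catagen libraries were below all telogen libraries in TPM, but after TMM normalization the groups overlapped. From May to September its log2 fold change was 0.12 ± 0.19 (SE, adjusted p = 0.653, edgeR) and from catagen to telogen 0.10 (SE 0.13, adjusted p = 0.546). With library totals these became -0.40 and 0.46 (adjusted p = 0.15 and 0.0275), so the sign of the May to September value depended on the scaling.

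The passenger of the b cluster, miR-27b-5p, ranged from 22.6 to 30 TPM in telogen, from 24.2 to 35.1 in May, from 31.5 to 40.2 in September and from 29.7 to 33.8 in catagen. Its log2 fold change was 0.81 ± 0.23 from May to September (SE, adjusted p = 0.0177, edgeR) and -0.72 from catagen to telogen (SE 0.16, adjusted p = 0.00545), under the 2-fold limit in both. The May to September value rested on single libraries. It was 0.33 (adjusted p = 0.376) without the female May library and 0.57 (adjusted p = 0.154) without the female September library, and 1.05 or 1.03, past the 2-fold limit, without the male May or the male September library. With library totals these were 0.28 (adjusted p = 0.4) and -0.36 (adjusted p = 0.115). The TPM of telogen and catagen overlapped through the male March library.

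Between the miR-23 guides the month of May stood apart. The TPM of miR-23b-3p was 4147 and 4131 in February and 4993 and 3853 in March, then 3431 and 2900 in May (female, then male). It was 4408 and 3111 in September, 3616 and 4417 in November, and 4049 and 4457 in December. The May libraries were below all telogen and all catagen libraries, but the male September library lay between them. The log2 fold change of miR-23b-3p was 0.94 from May to catagen (SE 0.20, adjusted p = 0.00387, edgeR) and 0.78 from May to September (SE 0.23, adjusted p = 0.0191), under the 2-fold limit in both. The May to September value was 1.06 and past the limit without the male September library, but it missed the adjusted p without the female May (0.67, adjusted p = 0.0849), the male May (0.62, adjusted p = 0.151) or the female September library (0.45, adjusted p = 0.224). The May to catagen value missed it without the male May library (0.80, adjusted p = 0.0613). With library totals the 2 values were 0.39 and 0.25 (adjusted p = 0.0763 and 0.326).

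For miR-23a neither comparison passed the test. Its TPM was 3904 to 5125 in telogen, 3967 and 4503 in May, 3648 and 2875 in September and 3358 to 4122 in catagen, where telogen and catagen overlapped. From May to September the log2 fold change was 0.16 ± 0.20 (SE, adjusted p = 0.572, edgeR) and from catagen to telogen -0.17 (SE 0.14, adjusted p = 0.348), and both changed sign with library totals (-0.38 and 0.18). The scarce passenger miR-23b-5p ranged from 9.16 to 15.7 TPM in telogen and from 14.9 to 17.9 in catagen. From catagen to telogen its log2 fold change was -0.74 ± 0.18 (SE, adjusted p = 0.00857), under the 2-fold limit, and from May to September 0.52 (SE 0.26, adjusted p = 0.133). With library totals the former was -0.36 (adjusted p = 0.18).

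miR-24-3p, the molecule that both clusters can give, had a TPM of 6771 and 6401 in February, 6646 and 7177 in March and 6841 and 5742 in May, against 4555 and 4877 in September, 4492 and 4673 in November, and 5314 and 4947 in December (female, then male). Before TMM scaling, all 6 libraries of February to May thus exceeded all 6 of September to December, opposite to miR-27b-3p. After TMM normalization this contrast was gone, with log2 fold changes of 0.11 from May to September (SE 0.14, adjusted p = 0.568, edgeR) and 0.12 from catagen to telogen (SE 0.10, adjusted p = 0.339). With library totals they were -0.42 (adjusted p = 0.0296) and 0.47 (adjusted p = 0.00353).

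The passenger miR-24-5p was lowest in May. It had 10.9 and 7.65 TPM there, against 13.5 to 19.4 in telogen, 11.1 and 18.6 in September and 14.4 to 20.7 in catagen. The May libraries lay below all 10 others, by a narrow margin to the female September library. miR-24-5p rose from May to September, by 1.18 on the log2 scale (SE 0.34, adjusted p = 0.0191, edgeR) and was higher in catagen than in May by 1.47 (SE 0.31, adjusted p = 0.00323). Neither is a call with library totals, at 0.67 (adjusted p = 0.133) and 0.92 (adjusted p = 0.0251). The May to September call was also lost without the female May, the male May or the male September library (0.83 to 1.26), and the catagen call without the male May library (1.22, adjusted p = 0.0551).

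Over the 9 miRNAs, 2 were called from May to September (both higher in September), where 18.3% of the 300 tested were called, 9.67% higher. From catagen to telogen 1 of 9 was called, lower in telogen (10.7% of all, 4.33% lower). From May to catagen 2 of 9 were called, both higher in catagen (16.7% of all, 9% higher), and from telogen to September 1 of 9, higher in September (9.33% of all, 4.67% higher). The median log2 fold change of the 9 was 0.78 from May to September, beside 0.07 over all 300, and -0.47 from catagen to telogen, beside 0.00. Counted in either direction, the calls of the 9 were near the shares of all 300. Counted in the given direction they were above these shares, but rest on 1 or 2 miRNAs, too few to be read as a difference. With library totals, which leave 1 of 9 called in each of these 4 comparisons, the background was less even in direction. Then 80 of 300 were called from May to September with 9 higher (TMM 55 with 29 higher), from catagen to telogen 48 with 43 higher (TMM 32 with 19), from May to catagen 82 with 10 higher (TMM 50 with 27) and from telogen to September 42 with 4 higher (TMM 28 with 14). By adjusted p alone, 5 of 9 passed from May to September (34% of all), 4 from catagen to telogen (35%), 5 from May to catagen (37%) and 4 from telogen to September (25.3%). The TMM-normalized CPM of the 2 groups did not overlap for 3 of the 9 between telogen and May (38.3% of all), 6 between May and September (75%), 1 between September and catagen (21%), 4 between catagen and telogen (30%), 8 between May and catagen (61%) and 5 between telogen and September (46.3%).

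From telogen to May none of the 9 was called with edgeR, where 2.33% of all were called (5.33% by adjusted p alone), and 3 of the 9 and 88 of the 300 had an unadjusted p under 0.05. DESeq2 called 12 of 300 there, miR-24-5p among them. From September to catagen none was called among the 9 or among all 300 with edgeR (0%), none of the 9 had an unadjusted p under 0.05 against 23 of 300, and DESeq2 called 0 of the 9 and 1 of 300. Between male and female libraries, with month as a term, none of the 9 or of the 300 (0%) was called by edgeR, nor any of the 9 by DESeq2, and none of the 9 had an unadjusted p under 0.05 (34 of 300 did). The differences between the sexes for the 9 ranged from -0.21 for miR-23b-3p to 0.08 for miR-23b-5p on the log2 scale.

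**Figure D2:**
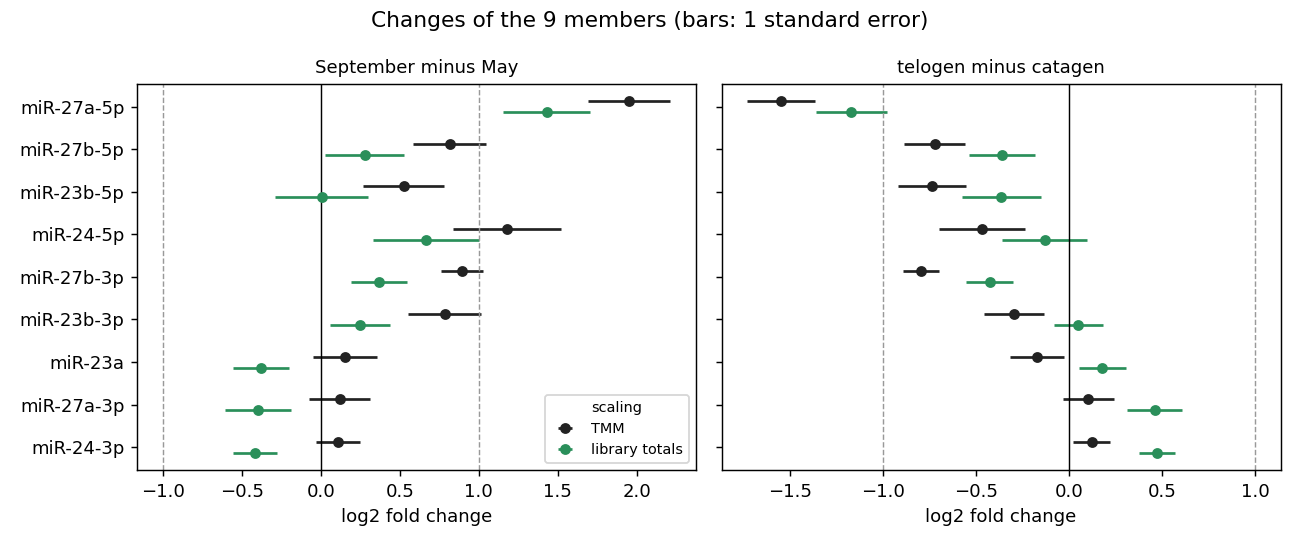
Log2 fold changes of the 9 miRNAs, September minus May on the left and telogen minus catagen on the right, with bars of 1 standard error and dashed lines at the 2-fold limit. Black points are scaled by TMM and green points by library totals, and miR-27a-5p is past the limit under both, at 1.95 and 1.43 on the left and -1.55 and -1.17 on the right.

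A comparison of arms within a precursor needs no scaling between libraries, since both strands are counted in the same library. Of 112 precursors listed with both arms, 87 had a mean count of at least 10 in each arm and were tested on the log2 ratio of 3p to 5p counts, miR-23b, miR-24, miR-27a and miR-27b among them. The 3p strand dominated in all 4. The 5p strand made up 0.0280% to 0.0478% of the reads of miR-27b, 0.220% to 0.637% of those of miR-23b and 0.133% to 0.439% of those of miR-24. For miR-27a it was 2.67% to 15.2%. For miR-23a no second arm is listed. The miR-24-3p reads can come from both clusters, so the ratio named miR-24 need not describe the arms of a single precursor. The part of each cluster in it was not tested. The 3p count of miR-27a depends on how reads that also match the far more abundant miR-27b-3p were assigned, which is not known here.

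The balance of the miR-27a arms shifted between May and September. In telogen the 5p strand made up 4.45% and 4.47% of miR-27a reads in February and 2.67% and 4.55% in March, and in May 3.90% and 4.05% (female, then male). In September it was 14.3% and 11.6%, in November 15.2% and 11%, and in December 10.2% and 10.1%. The 95% Wilson intervals of all libraries up to May stayed at or under 4.89%, and those from September on at or above 9.62%. The log2 ratio of 3p to 5p fell by 1.84 from May to September (SE 0.35, adjusted p = 0.000398, limma) and was higher in telogen than in catagen by 1.66 (SE 0.25, adjusted p = 4.29e-05). This call was kept in all 18 alternatives, and both sexes showed it, with telogen above catagen by 2.0 in the female and 1.32 in the male libraries.

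Shifts of arm balance were common among the 87 precursors, 37.9% of which were called from May to September, 48.3% from catagen to telogen, 40.2% from May to catagen and 39.1% from telogen to September. Of the 4 precursors, miR-27a and miR-24 were called in the first 3 of these and miR-27a in the last. From telogen to May none of the 4 was called (14.9% of the 87), and from September to catagen none of the 4 or of the 87 (0%). The direction of miR-27a was the less frequent. From May to September 23 precursors were called with a gain of 3p and 10 with a gain of 5p, miR-27a being among the latter, and from telogen to September these were 27 and 7. By size, miR-27a ranked 10 among 87 from May to September, 4 from catagen to telogen and 3 from telogen to September.

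For the arms of the paralogous precursor miR-27b no shift was detected. Its 5p share was 0.0291% to 0.0367% in telogen and 0.0292% to 0.0330% in catagen. The log2 ratio of 3p to 5p changed by 0.09 from May to September (SE 0.30, adjusted p = 0.827, limma) and by -0.08 from catagen to telogen (SE 0.21, adjusted p = 0.784). Between May and September the sexes moved in opposite directions, by -0.58 in the female and 0.76 in the male libraries, with 1 library per sex and month and no test of that difference. The fold changes of the 3p and 5p strands in the same comparison were 0.89 and 0.81 for miR-27b, the latter resting on single libraries as above, and 0.12 and 1.95 for miR-27a. For miR-23b the log2 ratio changed by 0.25 (SE 0.37, adjusted p = 0.643) and 0.43 (SE 0.26, adjusted p = 0.175) in these 2 comparisons, and in telogen the 5p share was lower in the female (0.220% and 0.224%) than in the male libraries (0.342% and 0.407%), while in catagen it was higher in the female (0.494% and 0.405%) than in the male libraries (0.343% and 0.334%).

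For miR-24 the 5p share was smallest in May, at 0.159% (95% Wilson interval 0.119% to 0.212%) in the female and 0.133% (0.0895% to 0.198%) in the male library. In telogen it was 0.209% to 0.285% and in catagen 0.289% to 0.439%, with only a narrow gap between these groups. The Wilson intervals of the libraries on either side of it overlapped, at 0.237% to 0.343% (female February) and 0.231% to 0.363% (male December). The log2 ratio of 3p to 5p fell by 1.28 from May to catagen (SE 0.28, adjusted p = 0.00082, limma) and by 1.04 from May to September (SE 0.32, adjusted p = 0.0118). The latter missed the adjusted p without the male May (-0.93, adjusted p = 0.0905) or the male September library (-0.72, adjusted p = 0.124). Between catagen and telogen the difference of 0.60 (SE 0.23, adjusted p = 0.0369) missed the adjusted p on leaving out any of 6 libraries (female and male November, female December, male February, female and male March), with an adjusted p of 0.0506 to 0.1 and a difference that stayed at 0.51 to 0.64. With sex as a block it was 0.60 (adjusted p = 0.0501). Since miR-24-3p can come from both clusters, a change of arms cannot be told apart here from a change in the output of the clusters.

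**Figure D3:**
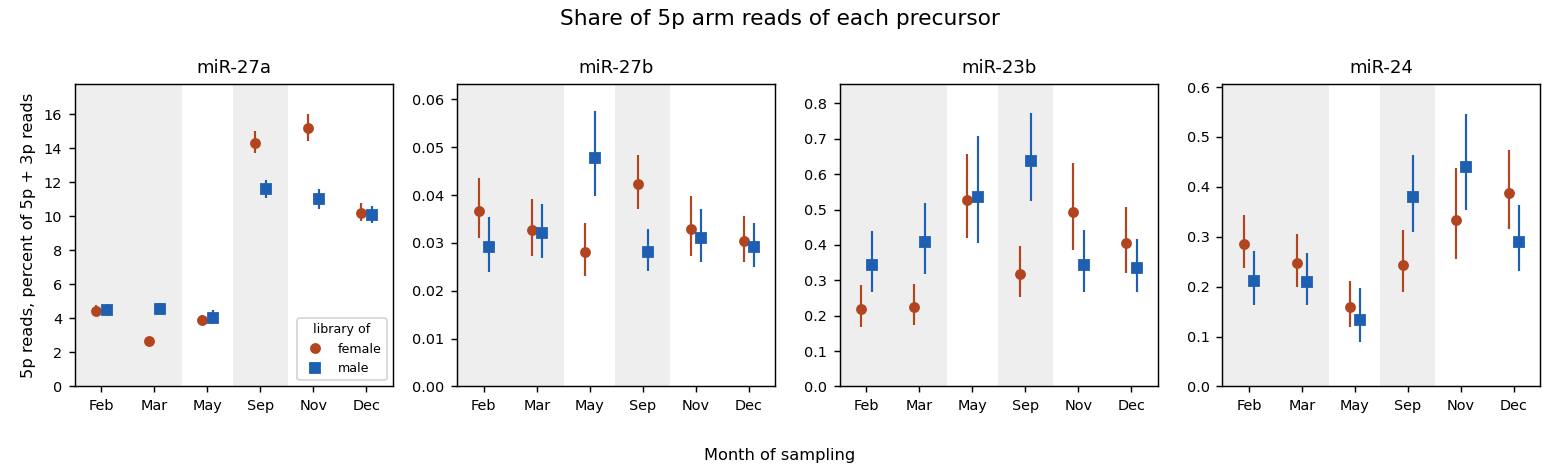
Share of 5p reads among the 5p and 3p reads of each precursor, in percent on linear axes from 0, by month. Each point is 1 library, circles female and squares male, with its 95% Wilson interval for counting error. The share of miR-27a is 2.67% to 4.55% up to May and 10.1% to 15.2% from September on, while that of miR-27b stays between 0.0280% and 0.0478%.

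The a and b clusters were then compared through the ratio of their counts in the same library, which is also free of scaling. The miR-27b-3p to miR-27a-3p ratio was 21.0 and 28.8 in February, 22.4 and 25.7 in March and 24.7 and 27.2 in May (female, then male). It was 49.8 and 39.8 in September, 48.8 and 44.1 in November, and 46.0 and 42.7 in December. The share of the b form among the miR-27 3p reads was accordingly 95.5% to 96.7% up to May and 97.6% to 98.0% from September on. The log2 ratio was higher in catagen than in telogen by 0.90 (exact permutation test, two-sided, p = 0.0286, the smallest that 4 against 4 libraries can give, and 0.0286 adjusted over the 3 ratios, higher in 4 of 4 catagen libraries). Permuted within sex as a block, this and the other two ratios between catagen and telogen have an adjusted p of 0.0556, the smallest that this design allows (exact permutation test). Over all 4 groups the exact permutation test gave p = 0.00341 (adjusted p = 0.00511 over the 3 ratios tested). The rise was seen in both sexes, with 1.12 in the female and 0.67 in the male libraries.

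miR-23b-3p and miR-23a were close to parity in all months but May. Their ratio was 1.06 and 1.02 in February, 0.974 and 0.916 in March, 0.762 and 0.731 in May, 1.21 and 1.08 in September, 1.08 and 1.07 in November, and 1.10 and 1.09 in December (female, then male). The b form thus made up 42.2% and 43.2% of miR-23 reads in the May libraries and 47.8% to 54.7% in the other 10. Over the 4 groups the exact permutation test gave p = 0.00075 (adjusted p = 0.00225). Between catagen and telogen the log2 ratios differed by 0.13 (exact permutation test, p = 0.0286, the smallest possible), a difference of small size beside that of May, whose mean log2 ratio was -0.42 against -0.01 in telogen and 0.12 in catagen. May and September were not tested against each other here, since an exact permutation test of 2 against 2 libraries cannot pass the threshold.

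Of the miR-27 passengers, the only ones that could be compared between clusters, the a form was the more abundant, and its lead widened. The miR-27b-5p to miR-27a-5p ratio was 0.166 to 0.267 in telogen, 0.171 and 0.309 in May, 0.126 and 0.0855 in September and 0.0896 to 0.123 in catagen. On the log2 scale the catagen minus telogen difference was -0.84 (exact permutation test, p = 0.0286, the smallest possible), with p = 0.0103 over the 4 groups (adjusted p = 0.0103). Thus between telogen and catagen the balance of clusters moved towards b in the 3p strands of miR-27 and towards a in its 5p strands.

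**Figure D4:**
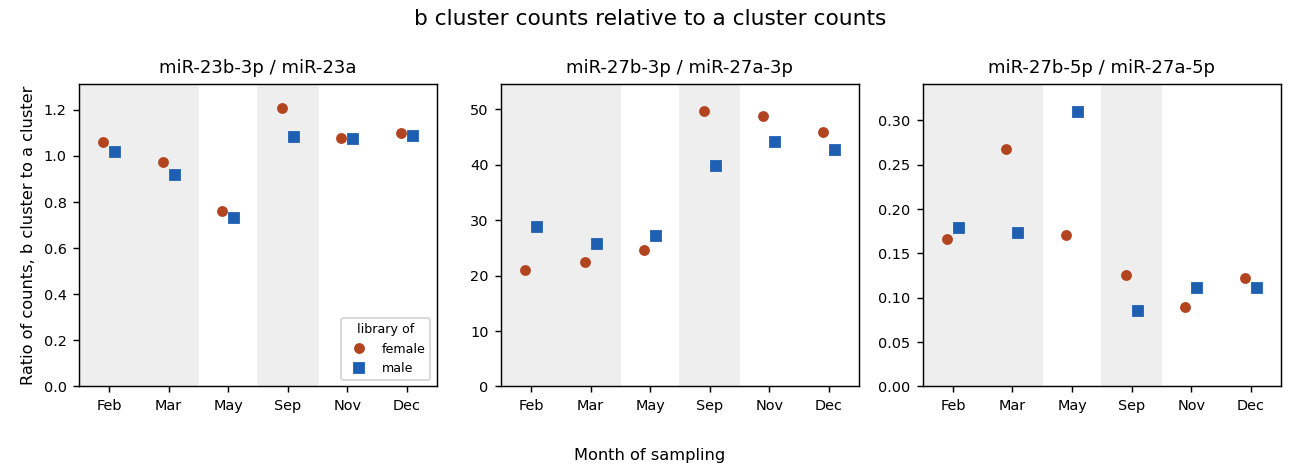
Ratio of b cluster to a cluster counts in each library against month (linear axes from 0, circles female, squares male). The miR-23 ratio dips to 0.762 and 0.731 in May, the miR-27 3p ratio is 21.0 to 28.8 up to May and 39.8 to 49.8 from September on, and the miR-27 5p ratio is lower from September on.

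The course over the 12 libraries was compared next. By Pearson correlation of TMM-normalized log2 CPM among the 300 miRNAs, those most like miR-27b-3p were miR-106b-3p (0.97), miR-195-3p (0.96) and miR-27a-5p (0.95). Those most like miR-27a-5p were miR-106b-3p (0.96), miR-378-3p (0.95) and miR-27b-3p (0.95). Among the 9, the highest correlation was thus that of miR-27a-5p with miR-27b-3p, strands of different clusters. miR-27a-5p and its own partner miR-27a-3p had a correlation of -0.02. In the b cluster, miR-27b-3p was at 0.85 with its partner miR-27b-5p, at 0.89 with miR-23b-5p and at 0.63 with miR-23b-3p. For miR-23a the most similar miRNA was miR-23b-3p (0.88), followed by miR-140-3p (0.85) and miR-26a-5p (0.80). For miR-24-3p they were miR-135a (0.87), miR-130a-3p (0.82) and miR-29b-3p (0.82), and miR-24-3p and miR-27b-3p were at -0.05. Among the passenger strands, miR-27b-5p was most like miR-7-5p (0.95), miR-532-5p (0.93) and miR-103-3p (0.93). miR-23b-5p was most like novel_587 (0.93), miR-106b-3p (0.91) and miR-103-3p (0.90), and miR-24-5p was most like miR-182 (0.89), miR-126-3p (0.87) and miR-155-5p (0.85). These correlations describe 12 libraries that share the seasonal contrast and the scaling, and carry no test.

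Other miRNAs known from blood vessel growth were taken as a pathway list, 8 of which are listed and tested. With TMM, 1 of 8 was called from May to September (18.3% of all), miR-378-3p, higher in September, and from May to catagen again 1 of 8, miR-378-3p, higher in catagen (16.7% of all). From catagen to telogen 1 of 8 was called, miR-296-3p, lower in telogen (10.7% of all), and from telogen to September 2 of 8, both of these and both higher (9.33% of all). None of these is a call with library totals, as all stayed under the 2-fold limit. There miR-378-3p was at 0.90 from May to September, 0.67 from May to catagen and 0.69 from telogen to September on the log2 scale. These 3 values passed the adjusted p (0.00127, 0.00203 and 0.00358, edgeR). With the same scaling miR-296-3p was at -0.89 from catagen to telogen (adjusted p = 0.0266, edgeR) and 0.91 from telogen to September (adjusted p = 0.0568). Library totals instead called miR-126-5p lower in September (-1.20) and catagen (-1.004) than in May, and miR-130a-3p lower in September than in telogen (-1.04). With TMM, the endothelial marker miR-126-3p had a change of 0.63 (log2) from May to September (SE 0.22, adjusted p = 0.0452, edgeR) and -0.25 from catagen to telogen (SE 0.16, adjusted p = 0.224), and miR-126-5p of -0.67 (adjusted p = 0.118) and 0.37 (adjusted p = 0.201). The median log2 fold change of the 8 was 0.03 from May to September, beside 0.07 over all 300, and -0.28 from catagen to telogen, beside 0.00.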

How the data were processed

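Small RNA was sequenced from SHFs in 12 libraries, grouped by month into telogen (4), May (2), September (2) and catagen (4). After adapter trimming and mapping to CHIR_2.0, the authors called miRNAs by miREvo and mirDeep2, with Bowtie 0.12.9 in the submitters' processing notes, and deposited raw counts for each miRNA. The authors also deposited TPM, which differs from the count per 1000000 counts of the library by at most 0.005.

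Counts were tested in R 4.3.3 with edgeR 4.0.16 (TMM, glmQLFit, glmQLFTest) in a fit of all 12 libraries with 4 groups. A miRNA was tested if 2 or more libraries exceeded 5 CPM, and a call needs an adjusted p (Benjamini-Hochberg over the 300 tested) under 0.05 and at least a 2-fold change. Sexes were compared with month as a term. The SE of a log2 fold change was derived from its F statistic, as the change over √F. Arm ratios, log2((3p + 1)/(5p + 1)), were tested with limma 3.58.1 over 87 precursors. Ratios of b to a forms, with 1 added to each count, were tested by exact permutation over libraries. Female and male libraries of a month differed by 65.2 to 635 times the degrees of freedom in chi-square and were counted as separate samples.

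Alternatives were DESeq2 1.42.0, RLE, library totals, other filters and pseudocounts, no minimum fold, fits limited to the compared groups, a block for sex, and each library left out. On simulated 4-fold changes, the May to September test recovered 191 of 200 with 1 false call among 95. The catagen to telogen test recovered 192 of 200 with 1 among 94, and the arm test 29 of 30 with 0 among 57. For the fold changes, as many miRNAs were raised as lowered. Smaller changes and a shift of most miRNAs in a common direction were thus not covered. Named are the 9 members, the 3 miRNAs most correlated with the most abundant member of each family and with each passenger strand, and members of lists. Members and lists were chosen with earlier results of these data known. Mature sequences were not analysed here.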

Additional observations from a re-analysis of the deposited data

Results flagged for a closer look

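In telogen, the female March library stood apart in the miR-27a arm ratio, with a log2 ratio of 3p to 5p of 5.19 against 4.39 to 4.42 in the other 3 telogen libraries. The same library stood apart in the log2 ratio of miR-27b-5p to miR-27a-5p, at -1.89 against -2.58 to -2.47. Both share the miR-27a-5p count of that library, which was 449 at a TPM of 88.2, the lowest of the 12. In catagen, miR-23b-5p had 22.1 TMM-normalized CPM in the female November library against 17.3 to 18.0 in the other 3, on 62 counts. Each of these had a gap to its nearest neighbour beyond Dixon's 95% limit of 0.829 for 4 samples. In all, 32 such groups of 4 libraries were examined, and chance flags about 1 in 20. No member had a sex difference that differed between telogen and catagen after adjustment over all miRNAs. The smallest adjusted p among the members was 0.148 (edgeR), for miR-23b-3p. Its telogen minus catagen value (log2) was 0.005 in the female and -0.63 in the male libraries. Next was miR-23a (adjusted p = 0.164), at 0.10 in the female and -0.47 in the male libraries.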

How the results depend on the processing

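Of the 277 alternative values of member counts, arm ratio counts and cluster ratios, 244 were rated the same. A cluster ratio had to keep its direction and side of the threshold. A count had to be equal or close, so that 3 in place of 2 was rated the same. TMM and library totals differed because the median miRNA shifted relative to the total, and May and September rest on 2 libraries each. The number of members called was 1 in place of 0 from telogen to May with DESeq2. From May to September and from May to catagen it was 1 in place of 2 with library totals and with a filter of more than 50 CPM, which removes miR-24-5p. With no minimum fold it was 5 from May to September, 4 from catagen to telogen, 5 from May to catagen and 4 from telogen to September. With each library left out it was 1 to 3 from May to September (1 without the female May library, 3 without the male September library), 1 to 2 from May to catagen (1 without the male May library), 1 to 2 from telogen to September (2 without the male September library) and 0 to 1 from telogen to May (1 without the male March library).

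Library totals turned the sign of the May to September values of miR-23a (-0.38), miR-24-3p (-0.42) and miR-27a-3p (-0.40), and of the catagen to telogen values of miR-23a (0.18) and miR-23b-3p (0.050). From May to catagen they turned those of miR-23a (-0.15), miR-24-3p (-0.37), miR-27a-3p (-0.45) and miR-23b-5p (-0.069). From telogen to September they turned those of miR-23b-3p (-0.19) and miR-24-5p (-0.12). For miR-27b-3p they turned the values from telogen to May (0.063) and from September to catagen (-0.0070). The 50 CPM filter turned the May to September values of miR-24-3p (-0.036) and miR-27a-3p (-0.015). With each library left out, the May to September values ranged from -0.086 to 0.36 for miR-23a, -0.058 to 0.11 for miR-24-3p and -0.12 to 0.33 for miR-27a-3p. The May to September arm ratio changes then ranged from -0.25 to 0.75 for miR-23b and -0.29 to 0.47 for miR-27b. None of these passed the test before.

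The number of the 4 precursors with a called arm ratio was 1 in place of 0 from telogen to May with a pseudocount of 5, 1 in place of 2 from catagen to telogen with sex as a block, and with each library left out 0 to 1 from telogen to May, 1 to 2 from May to September and 1 to 2 from catagen to telogen. A minimum mean count of 100 left no value for miR-23b and miR-24. The block stands for sex, since the labels pair no animals. Permuting within sex as a block, the catagen minus telogen differences of the b to a ratios kept their size (0.13, 0.90 and -0.84) at an adjusted p of 0.0556, the smallest that design allows (exact permutation test). With each library left out, the miR-23 difference ranged from 0.090 to 0.16, with an adjusted p of 0.0571 without any of the catagen libraries. The block changed no other call of the members. The causes were not tested.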
